A study of Mus musculus with 8 samples.

Results

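The fibroblast growth factor (FGF) ligands and receptors of mouse wound skin were followed here as 10 genes of the deposited count table, namely the ligands Fgf2, Fgf5, Fgf7, Fgf10, Fgf18, Fgf22 and Fgf23 and the receptors Fgfr1, Fgfr2 and Fgfr3. They were taken by gene symbol for their known part in the hair cycle and in wound repair, out of 18540 genes in the table. This choice was made with earlier results of these data known. All 10 were among the 15147 genes that passed the low-count filter. RNA was sequenced from the wound skin of 4 control samples, numbered 1, 2, 3 and 5, which received PBS, and 4 samples, numbered 1, 2, 4 and 5, treated for 15 days with ZCZ, a composite of ZnO2 and CeO2 on the zeolitic framework ZIF-8 that releases oxygen and removes reactive oxygen species. The material was injected around full-thickness wounds on the back. The study treated mice with ZCZ of different ratios of CeO2 to ZnO2, and the methods do not say which the sequenced samples received. The study wounded C57BL mice (6 weeks old) and db/db mice (10 weeks old), which lack a working leptin receptor and become diabetic, and the methods do not say which strain was sequenced or which libraries came from the same mouse, although each mouse carried a pair of wounds. The p-values therefore measure the spread between these samples, which may not be separate animals. Between 28856790 and 38974888 reads per library were counted on genes. Keratinocyte, fibroblast and endothelial markers were read in every library, as skin should hold, and so were skeletal muscle markers. Libraries stood apart within both groups. Control-1 had a lower Pearson r over log2 CPM with control-3 (0.960) than with ZCZ-5 (0.968). Control-3 likewise had a lower r with control-5 (0.968) than with ZCZ-5 (0.982). ZCZ-2 and ZCZ-4 were most alike, at a Pearson r of 0.990 over log2 CPM, while ZCZ-5 had a higher r with control-2 (0.981) and control-3 (0.982) than with ZCZ-2 (0.964) and ZCZ-4 (0.961), and its highest r with ZCZ-1 (0.986). Values by library follow in the order of these numbers, and means are given ± SD over the 4 libraries of a group. Because whole tissue was sequenced, fewer cells of a type and less RNA per cell cannot be told apart.

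FGF ligands are signals between neighbouring cells. They bind receptor tyrosine kinases on the target cell together with heparan sulfate, a sugar chain of the cell surface and matrix, and the receptor passes the signal through adaptor proteins to RAS and ERK. In skin the mesenchyme makes ligands such as Fgf7 and Fgf10 for the epithelial splice form of Fgfr2, while Fgfr1 is the main receptor of fibroblasts and vessels. The hair follicle uses the family to time its cycle, with Fgf5 known as the signal that ends the growth phase and Fgf18 as a signal of the resting phase.

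The members did not move in a common direction. Fgf5 and Fgfr3 rose in the ZCZ group, and Fgf7 and Fgf23 fell, at an adjusted p under 0.05 in edgeR's quasi-likelihood test. That is 2 of 10 members higher and 2 of 10 lower, where 4.28% of all genes tested were higher and 3.85% lower, 8.13% in all. The other 6 members did not pass the test. At an unadjusted p under 0.05 stood 8 of 10 members, against 28% of all genes. With an absolute log2 fold change over 1 as well, Fgf5, Fgf7 and Fgf23 were called, against 2.15% of all genes higher and 1.25% lower. Of the 10 members, 7 had values in the ZCZ libraries that did not overlap those of the control libraries, 3 above and 4 below, where 17.3% of all genes tested had no overlap (8.45% above and 8.82% below). Because the members were chosen with earlier results of these data known, these shares are not a test of the family. The adjusted p-values of members that passed lay between 0.0299 and 0.0378, close to the threshold, and no gene of the table had one under 0.0232. In fits that left out control-2, control-5, ZCZ-1, ZCZ-2 or ZCZ-4, no member passed. Without both ZCZ-2 and ZCZ-4, a fit chosen after seeing the data, none passed either, and the log2 fold changes were 2.48 for Fgf5, 0.48 for Fgfr3, -0.99 for Fgf7 and -3.44 for Fgf23. DESeq2 called 4 members higher and 4 lower, adding Fgf22, Fgfr2, Fgf2 and Fgfr1, where it called 7.97% of all genes higher and 10.2% lower.

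**Figure D1:**
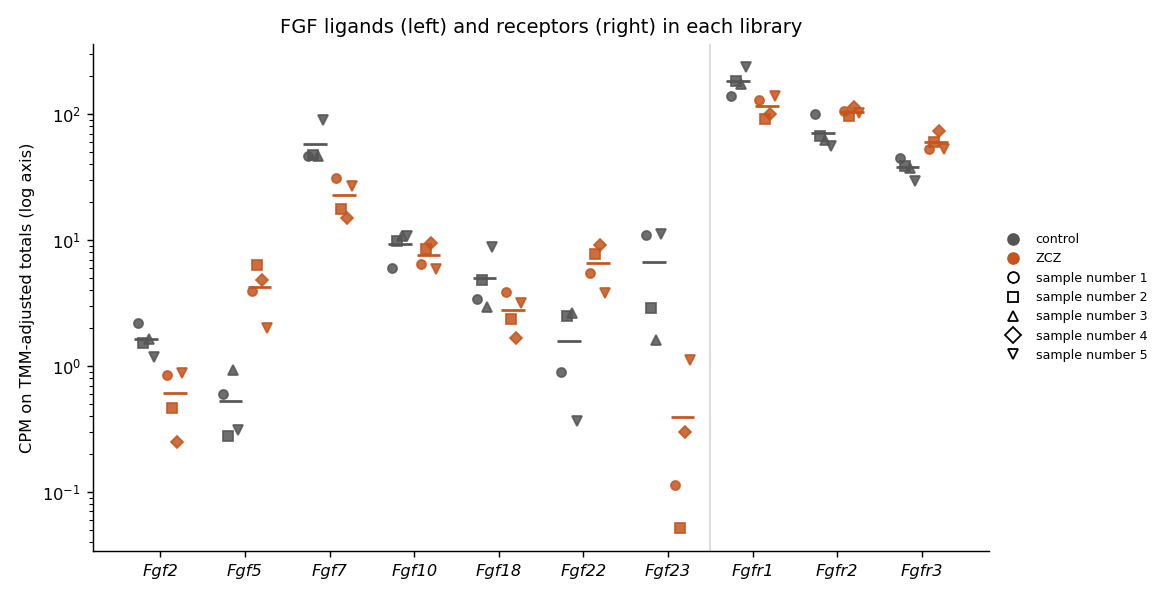
Counts scaled to library size (CPM, counts in 1000000, on a log axis) of the 7 ligands and 3 receptors in the 4 control libraries (grey) and the 4 ZCZ libraries (orange); marker shape gives the sample number and the bar the group mean. Fgf5, Fgf22 and Fgfr3 lay higher in every ZCZ library than in every control library, and Fgf2, Fgf7, Fgf23 and Fgfr1 lay lower.

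**Figure D2:**
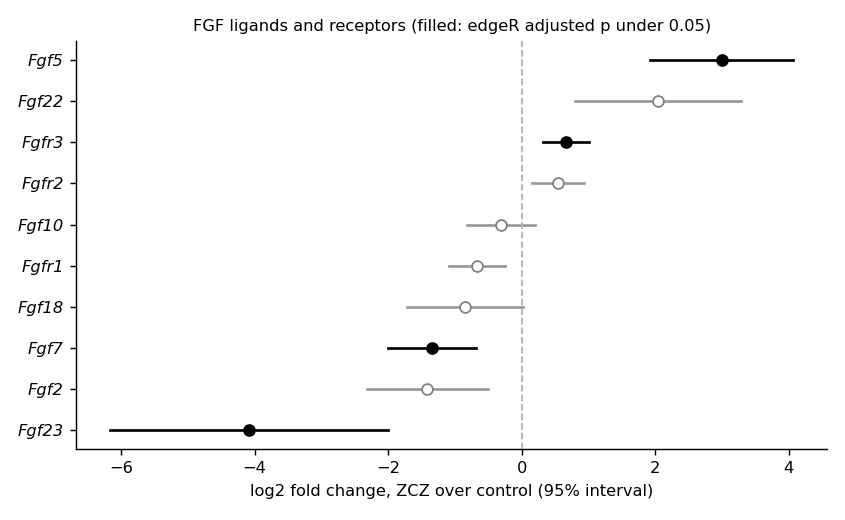
Log2 fold change of each member in the ZCZ group over the control group, with the 95% interval of the edgeR fit; filled points have an adjusted p under 0.05. The values run from -4.08 for Fgf23 to 3.00 for Fgf5.

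Fgf5 (Entrez 14176), the ligand whose loss lengthens the hair coat, had the largest rise of the 10 members. Its counts were 17, 10, 34 and 11 in control and 140, 243, 192 and 72 in ZCZ. Every ZCZ library lay above every control library, and ZCZ-5 was the lowest of the treated libraries. On totals adjusted by the trimmed mean of M-values (TMM), this is 0.532 ± 0.307 CPM, counts in 1000000, in the control group and 4.27 ± 1.80 CPM in the ZCZ group. In edgeR Fgf5 had a log2 fold change of 3.00 with standard error 0.48 and adjusted p 0.0299, which is 7.99-fold higher. Over 16 other settings it lay between 2.48 and 3.44, with an adjusted p between 4.5e-08 and 0.280. The 250 bases upstream of the RefSeq start of Fgf5, at chr5:98253934-98254183 on the plus strand of GRCm38.p6, are shown because Fgf5 passed the test. Capitals mark a GC box, the letters GGGCGG on either strand, which 32.7% of 32851 promoter windows of the same length also hold.
Fgf5: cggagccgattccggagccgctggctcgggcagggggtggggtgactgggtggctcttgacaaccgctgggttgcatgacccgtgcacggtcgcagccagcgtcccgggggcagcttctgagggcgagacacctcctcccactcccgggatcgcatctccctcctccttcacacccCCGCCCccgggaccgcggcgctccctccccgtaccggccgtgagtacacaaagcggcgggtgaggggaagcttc

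Fgf22 (Entrez 67112), a ligand of the Fgf7 subfamily known from the hair follicle and from synapses, was also higher in every ZCZ library. Its counts were 25, 90, 95 and 13 in control and 196, 302, 367 and 137 in ZCZ. The control group was itself split, with 2.50 and 2.62 CPM in control-2 and control-3 against 0.888 and 0.366 CPM in control-1 and control-5. The group values were 1.59 ± 1.14 CPM in control and 6.59 ± 2.40 CPM in ZCZ. The log2 fold change of 2.04, with standard error 0.55, reached an adjusted p of 0.0534 in edgeR and missed the threshold, with a 95% interval from 0.80 to 3.28. DESeq2 gave an adjusted p of 0.00151. In GENCODE M21, exons of Fgf22 and of Rnf126 on the opposite strand share 82 bases, 3.65% of the exon bases of Fgf22. Rnf126 had a mean of 29.7 CPM in the control group and 29.6 CPM in the ZCZ group. The strand setting of the counting is not given in the sources used here, so reads on the shared bases cannot be told apart.

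Fgf7 (Entrez 14178), the keratinocyte growth factor that mesenchymal cells send to the epithelium, fell in the ZCZ group. It had 1316, 1721, 1695 and 3182 counts in control and 1097, 687, 593 and 977 counts in ZCZ. The groups did not overlap in CPM. Control-5 stood apart at 89.6 CPM, while the other 3 control libraries lay between 46.7 and 47.8 CPM. The means were 57.7 ± 21.3 CPM and 22.7 ± 7.57 CPM. For Fgf7 the log2 fold change was -1.35 with standard error 0.29 and adjusted p 0.0337 in edgeR, or 2.55-fold lower. Without control-5 it was -1.05 with an edgeR adjusted p of 0.0839, in a fit in which no gene tested passed. The 250 bases upstream of its RefSeq start lie at chr2:126034408-126034657 on the plus strand of GRCm38.p6 and are shown for the same reason as those of Fgf5. Capitals mark a CCAAT box, the letters CCAAT on either strand, present in 33.8% of all promoter windows.
Fgf7: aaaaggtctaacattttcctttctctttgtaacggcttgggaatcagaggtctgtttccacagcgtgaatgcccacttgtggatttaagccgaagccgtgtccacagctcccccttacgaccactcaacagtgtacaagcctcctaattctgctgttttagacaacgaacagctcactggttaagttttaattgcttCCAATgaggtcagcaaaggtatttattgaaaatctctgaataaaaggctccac

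Fgf10 (Entrez 14165), a close relative of Fgf7 and another mesenchymal ligand of Fgfr2, did not follow it past the test. It had 9.39 ± 2.29 CPM in the control group and 7.58 ± 1.71 CPM in the ZCZ group. The groups overlapped, since control-1 with 6.04 CPM lay below 3 of the 4 ZCZ libraries. Its log2 fold change was -0.31 with standard error 0.23 and adjusted p 0.401 in edgeR, with a 95% interval from -0.82 to 0.20. Whether Fgf7 and Fgf10 differed in their change was not tested.

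Fgf2 (Entrez 14173), basic FGF, a growth factor for fibroblasts and endothelium, was lower in every ZCZ library, at low counts. It had 62, 55, 59 and 42 counts in control and 30, 18, 10 and 32 counts in ZCZ. This is 1.63 ± 0.424 CPM against 0.613 ± 0.307 CPM. The log2 fold change of -1.41, with standard error 0.40, reached an adjusted p of 0.0616 in edgeR, and 0.0107 in DESeq2. Nudt6, on the opposite strand, shares 640 exon bases with Fgf2 in GENCODE M21, which is 9.44% of the exon bases of Fgf2. Nudt6 had a mean of 4.19 CPM in the control group and 3.75 CPM in the ZCZ group (log2 fold change -0.16, edgeR adjusted p = 0.597), so its counts were more numerous than those of Fgf2.

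Fgf18 (Entrez 14172), a ligand of the resting hair follicle, overlapped between the groups. It had 96, 173, 106 and 311 counts in control and 137, 92, 67 and 115 counts in ZCZ. Control-5 with 8.76 CPM was the highest library, and ZCZ-1 with 3.86 CPM lay above 2 of the 4 control libraries. The means were 4.97 ± 2.65 CPM and 2.78 ± 0.949 CPM, a log2 fold change of -0.84 with standard error 0.39 and adjusted p 0.190 in edgeR. Without control-5 the log2 fold change was -0.42.

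Fgf23 (Entrez 64654), known as a hormone that bone makes to lower blood phosphate, showed the largest fall of the members. It had 308, 104, 58 and 400 counts in control and 4, 2, 12 and 40 counts in ZCZ. Every ZCZ library lay below every control library, although ZCZ-5 with 1.11 CPM was close to control-3 with 1.598 CPM. The control group was again split, with 10.9 and 11.3 CPM in control-1 and control-5 against 2.89 and 1.598 CPM in control-2 and control-3. The group means were 6.67 ± 5.15 CPM and 0.394 ± 0.489 CPM. The log2 fold change was -4.08 with standard error 0.92 and adjusted p 0.0364 in edgeR, with a wide 95% interval from -6.16 to -1.997. Without ZCZ-5, which had the most Fgf23 of the treated libraries, it was -5.37, and over the other fits that left out 1 library it lay between -4.40 and -3.68. Kl (klotho), the co-receptor that Fgf23 needs for its hormone action in the kidney, had at most 2 counts in any library and was not tested. The 250 bases upstream of the RefSeq start of Fgf23 lie at chr6:127072652-127072901 on the plus strand of GRCm38.p6. They are shown because Fgf23 fell, and capitals mark a match to the STAT letters TTCNNNGAA on either strand, which 7.02% of all promoter windows hold.
Fgf23: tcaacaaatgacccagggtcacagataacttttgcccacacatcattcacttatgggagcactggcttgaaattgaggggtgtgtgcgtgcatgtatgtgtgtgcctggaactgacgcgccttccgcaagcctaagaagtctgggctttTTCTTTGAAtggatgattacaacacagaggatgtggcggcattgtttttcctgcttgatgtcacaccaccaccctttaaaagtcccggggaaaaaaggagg

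The receptors had smaller log2 fold changes than the ligands that passed. Fgfr3 (Entrez 14184), an epithelial receptor that restrains growth in bone, rose in the ZCZ group. It had 45.0, 38.9, 37.7 and 29.4 CPM in control and 52.6, 60.6, 73.2 and 52.5 CPM in ZCZ. No ZCZ library reached down to the control range. The means were 37.8 ± 6.44 CPM and 59.7 ± 9.76 CPM, a log2 fold change of 0.66 with standard error 0.15 and adjusted p 0.0378 in edgeR or 1.58-fold higher. Of 16 other settings, 8 kept its call, and its log2 fold change ran from 0.48 to 0.75 over all of them. The stretch upstream of the first RefSeq start of Fgfr3, cut to the 200 bases before the first exon in GENCODE M21, lies at chr5:33721474-33721673 on the plus strand of GRCm38.p6. Capitals mark CCAAT and GC boxes on either strand.
Fgfr3: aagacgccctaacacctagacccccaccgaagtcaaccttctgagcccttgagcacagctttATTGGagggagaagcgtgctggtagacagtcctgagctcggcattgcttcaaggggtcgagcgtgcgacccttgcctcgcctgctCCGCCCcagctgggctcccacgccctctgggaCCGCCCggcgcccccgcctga

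Fgfr2 (Entrez 14183), whose epithelial splice form receives Fgf7, Fgf10 and Fgf22, pointed the same way without passing the test. It had 101, 67.0, 62.4 and 55.8 CPM in control and 106, 96.2, 114 and 102 CPM in ZCZ. Only control-1 reached the range of the ZCZ group, and the means were 71.4 ± 19.98 and 105 ± 7.55 CPM. The log2 fold change was 0.55 with standard error 0.17 and adjusted p 0.0782 in edgeR. Of the 8 fits that left out 1 sample, Fgfr2 passed in 1, that without control-1, the library that overlapped. There its log2 fold change was 0.76 with an edgeR adjusted p of 0.0266. Over the 8 fits the edgeR adjusted p ran up to 0.184. Fgfr1 (Entrez 14182), the receptor of mesenchyme and vessels, lay in the opposite direction. It had 139, 185, 174 and 237 CPM in control and 130, 91.2, 101 and 138 CPM in ZCZ. The groups were barely apart, with 138.52 CPM in control-1 and 138.49 CPM in ZCZ-5, around means of 184 ± 40.7 and 115 ± 22.6 CPM. Its log2 fold change of -0.67, with standard error 0.19, reached an adjusted p of 0.0568 in edgeR, with a 95% interval from -1.09 to -0.25. The counts are per gene and do not separate the epithelial and mesenchymal splice forms of any receptor. In GENCODE M21, Fgfr3 shares 998 exon bases (13.9% of its own) with G630022F23Rik on the opposite strand, and Fgfr2 shares 314 (3.04%) with Ctbp2 on the same strand. Ctbp2 had a log2 fold change of -0.28 with adjusted p 0.0639 in edgeR, and G630022F23Rik was not among the genes tested.

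The balance of the receptors within a library does not depend on how libraries are scaled, so it was compared as a log2 ratio of counts, which are not divided by gene length. The log2 ratio of Fgfr2 to Fgfr1 was -0.46, -1.47, -1.48 and -2.09 in control and -0.29, 0.08, 0.17 and -0.44 in ZCZ. The groups did not overlap, with control-1 and ZCZ-5 next to each other. The means were -1.37 ± 0.67 and -0.12 ± 0.29, a difference of 1.25 on the log2 scale (exact two-sided permutation test, p = 0.0286). For Fgfr3 to Fgfr1 the means were -2.27 ± 0.57 and -0.94 ± 0.48, a difference of 1.33 (exact two-sided permutation test, p = 0.0286), also without overlap. This p is the smallest that 4 samples against 4 allow, and both ratios share Fgfr1 and so are not separate evidence.

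**Figure D3:**
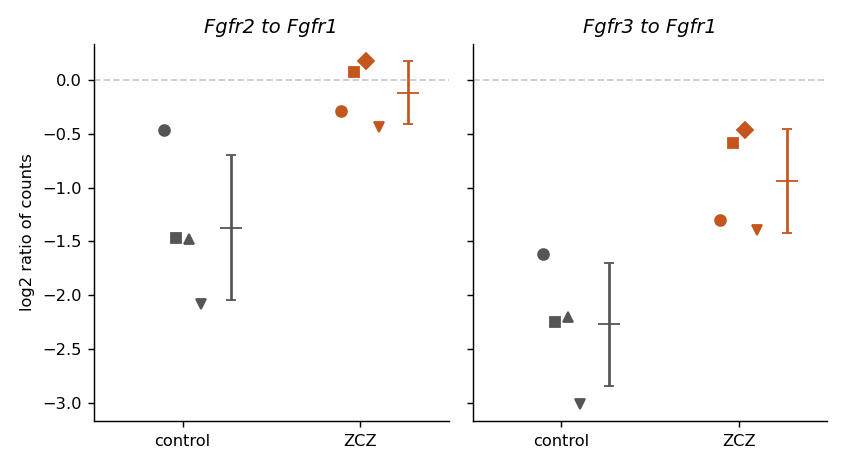
Log2 ratio of Fgfr2 counts (left) and Fgfr3 counts (right) to Fgfr1 counts in each control library (grey) and ZCZ library (orange), with the group mean ± SD beside the points; the dashed line marks equal counts. Both ratios are higher in all 4 ZCZ libraries than in all 4 control libraries.

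Levels of different members were compared per kilobase of their longest GENCODE M21 transcript, as CPM per kilobase. In the control group Fgfr1 stood first with 36.4 ± 8.08, followed by Fgf7 with 21.6 ± 7.97 and Fgfr2 with 16.1 ± 4.51. The ranges of these neighbours overlapped, while Fgfr2 lay above Fgfr3 (8.90 ± 1.52) in every library without overlap. Fgf18, Fgf23 and Fgf10 followed with 4.58, 3.68 and 2.28, and neighbours from Fgfr3 to Fgf10 overlapped. Fgf22 (0.735), Fgf2 (0.274) and Fgf5 (0.213) were the lowest, and neighbours among them overlapped. In the ZCZ group Fgfr2 (23.7 ± 1.70) and Fgfr1 (22.9 ± 4.48) were level, each the higher in 2 of 4 libraries. Fgfr3 (14.1 ± 2.30) stood next and Fgf7 (8.49 ± 2.83) after it, each apart from its neighbours in rank. Fgf22 was the second ligand with 3.04, overlapping Fgf18 with 2.56, and Fgf5 with 1.71 overlapped Fgf10 with 1.84. Fgf23 (0.217) and Fgf2 (0.103) were last and overlapped. The order of the receptors depends on the length used. With merged exon length in place of the longest transcript, Fgfr1 (18.6) and Fgf7 (17.8) were near each other in the control group, each the higher in 2 of 4 libraries, and Fgf7 lay apart from Fgfr2 (6.92). Fgfr2 and Fgfr3 (5.28) then overlapped. In the ZCZ group Fgfr1 (11.7), Fgfr2 (10.1), Fgfr3 (8.34) and Fgf7 (6.98) followed each other in that order, each overlapping the next, so that Fgfr3 no longer stood apart from Fgf7.

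Markers of other cell types moved with several members. The marker lists were chosen with earlier results of these data known, so their counts are not a test. Over all genes tested, 4.28% rose and 3.85% fell. Of 15 markers of the hair shaft and inner root sheath, 14 rose, and all were read in every library. Their summed level was 719.7 CPM in control-1, 2449 in control-2, 3821 in control-3 and 648 in control-5, against 9659 in ZCZ-1, 16970 in ZCZ-2, 16428 in ZCZ-4 and 4669 in ZCZ-5. Among the control libraries the order of the marker sum was the order of Fgf22 and the reverse order of Fgf23. Among the ZCZ libraries neither order was exact, since ZCZ-4 had more Fgf22 than ZCZ-2 and more Fgf23 than ZCZ-1. Fgf5 followed the order of the marker sum among the ZCZ libraries but not among the control libraries, where control-2 had the least. The 8 fibroblast markers summed to between 54935 and 78189 CPM in the control group and between 43159 and 60627 CPM in the ZCZ group, with 2 fallen (Dcn and Lum). The 10 skeletal muscle markers summed to between 3749 and 7047 CPM and between 3285 and 3531 CPM, with 3 fallen, and the 6 endothelial markers to between 316 and 839.7 CPM and between 276 and 522 CPM, with none past the test. The endothelial sum had the same order as Fgfr1 in the control libraries. In the ZCZ libraries it did not, since ZCZ-4 had more Fgfr1 than ZCZ-2 and a lower sum. The 8 markers of interfollicular keratinocytes summed to between 11741 and 14153 CPM and between 12931 and 18220 CPM, and none passed the test. The part of hair, fibroblast, muscle and vessel RNA in the changes of Fgf5, Fgf22, Fgf23, Fgf7, Fgf2 and the receptors was not tested.

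**Figure D4:**
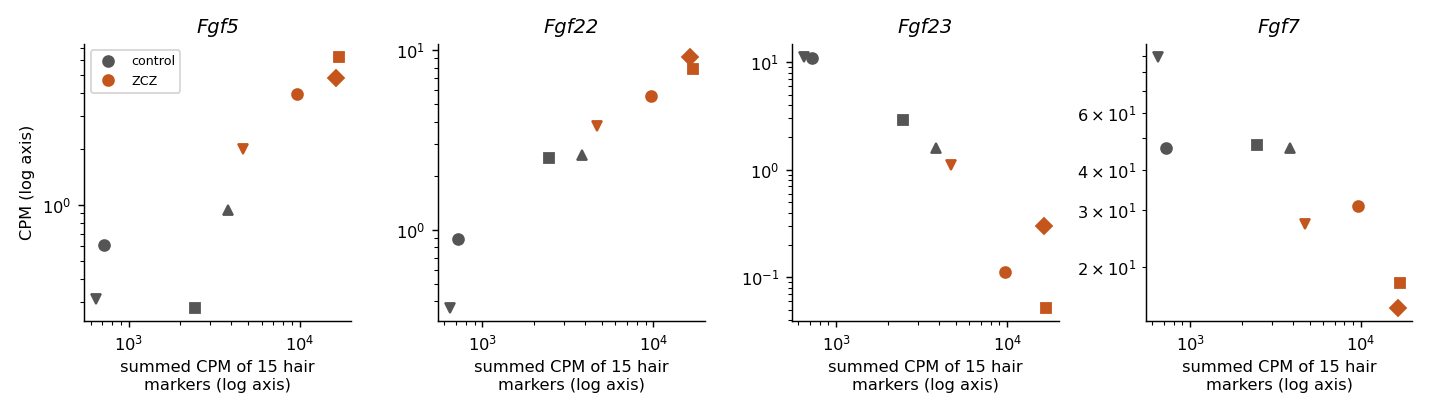
CPM of Fgf5, Fgf22, Fgf23 and Fgf7 (log axis) against the summed CPM of 15 hair shaft and inner root sheath markers (log axis) in the control libraries (grey) and ZCZ libraries (orange); marker shape gives the sample number as in the plot of all members. Fgf22 goes up and Fgf23 down along the marker sum among the control libraries, and ZCZ-2 and ZCZ-4 hold the highest sums.

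The genes whose log2 CPM was most like that of Fgf5 over the 8 libraries were Slc24a4, Cbs, Lhfpl1, Adgra3 and Aagab, with a Pearson r between 0.985 and 0.992. After each group mean was taken out, r lay between 0.899 and 0.961. All of these 5 rose in the ZCZ group, with log2 fold changes from 0.47 for Aagab to 1.83 for Cbs, an enzyme of cysteine synthesis. The genes most like Fgfr3 were Stambp, Pou3f1, Shisa2, Esrp1 and Foxc1, with r between 0.989 and 0.998. With the group means taken out, r lay between 0.962 and 0.993. Stambp, the most alike, had a log2 fold change of 0.27 with adjusted p 0.0946 in edgeR and did not pass. Pou3f1, Shisa2, Esrp1 and Foxc1 rose, with log2 fold changes from 0.52 for Esrp1 to 0.99 for Foxc1. Esrp1 encodes a splicing factor of epithelial cells and had an adjusted p of 0.0400 in edgeR. These values describe libraries that share a group difference and were picked as the highest of 15147 genes.

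Of the other genes of FGF signaling, 80 were listed by role and 71 passed the low-count filter. In this set 3 rose and 2 fell, which is 4.23% and 2.82%, near the 4.28% and 3.85% of all genes, and 13 (18.3%) did not overlap between the groups, near the 17.3% of all genes. The median log2 fold change was -0.11, where it was 0.01 over all genes tested. By list the share without overlap ran from 0% to 37.5%. It was 28.6% for the 21 heparan sulfate and FGF binding genes. DESeq2 called 4 of the 71 higher (5.63%) and 14 lower (19.7%), against 7.97% and 10.2% of all genes.

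Of the 11 other secreted ligands, 3 passed the filter and none passed the test. Fgf1, the acidic FGF, had 9.73 ± 0.894 CPM in the control group and 9.40 ± 0.872 CPM in the ZCZ group, a log2 fold change of -0.05 with adjusted p 0.818 in edgeR. Fgf16 had a log2 fold change of 0.71 with adjusted p 0.273 in edgeR from at most 40 counts. The 8 untested ligands, Fgf3, Fgf4, Fgf6, Fgf8, Fgf15, Fgf17, Fgf20 and Fgf21, had at most 7 counts in any library. The 4 intracellular FGF homologous factors, which bind sodium channels and are not secreted, overlapped between the groups, with log2 fold changes of -0.09 for Fgf11, -0.18 for Fgf12, -0.35 for Fgf13 and 0.82 for Fgf14, and none passed the test (edgeR adjusted p = 0.153 for Fgf14).

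Among 9 other receptors and co-receptors, 8 passed the filter, 1 rose and 1 fell. Flrt3, a membrane protein that binds FGF receptors, had 72.9, 64.9, 58.1 and 58.2 CPM in control and 114, 126, 126 and 80.5 CPM in ZCZ. All ZCZ libraries were above the control range, and ZCZ-5 was the nearest to it. The log2 fold change was 0.81 with standard error 0.15 and adjusted p 0.0303 in edgeR. Ncam1, the neural cell adhesion molecule, which can bind Fgfr1, fell from 53.8 ± 0.937 CPM to 31.3 ± 5.93 CPM, a log2 fold change of -0.78 with adjusted p 0.0299 in edgeR.

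Of 21 heparan sulfate carriers, FGF binding proteins and enzymes of heparan sulfate, all passed the filter, none rose and 1 fell. Their log2 fold changes lay under 0 for 16 of 21, with a median of -0.29 against 0.01 over all genes tested. Ext1, a polymerase of the heparan sulfate chain, fell from 152 ± 24.0 CPM to 89.9 ± 21.3 CPM, a log2 fold change of -0.76 with standard error 0.18 and adjusted p 0.0400 in edgeR. None of the 17 adaptors and kinases of the RAS and ERK relay passed the test, and their median was 0.04. Nras, a RAS protein of this relay, had 170.4 ± 14.4 and 179 ± 6.19 CPM, a log2 fold change of 0.07 with adjusted p 0.632 in edgeR.

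Among 18 feedback inhibitors and ERK-responsive targets, 2 rose and none fell, while 16 had a log2 fold change under 0. The median of this list was -0.11, against 0.01 over all genes tested. Etv4, a transcription factor induced by FGF signals, rose from 12.9 ± 3.99 CPM to 23.1 ± 3.36 CPM, a log2 fold change of 0.84 with standard error 0.21 and adjusted p 0.0452 in edgeR, with control-2 and ZCZ-5 level at 18.2 CPM. Its relative Etv5 had a log2 fold change of -0.05 with adjusted p 0.831 in edgeR. Ccnd1, the cell cycle gene of cyclin D1, rose from 122 ± 16.0 CPM to 185 ± 14.1 CPM, a log2 fold change of 0.60 with adjusted p 0.0300 in edgeR. The classic feedback genes stayed short of the test, with -0.11 for Dusp6 (edgeR adjusted p = 0.486), -0.07 for Spry1 (0.833) and -0.69 for Spry4 (0.136). Fosl1, an AP-1 subunit, had a log2 fold change of -2.50 with adjusted p 0.0508 in edgeR and was lower in every ZCZ library. It had 11.6, 5.66, 5.54 and 31.9 CPM in control, highest in control-5, and control-3 was near ZCZ-5 with 4.49 CPM.

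**Figure D5:**
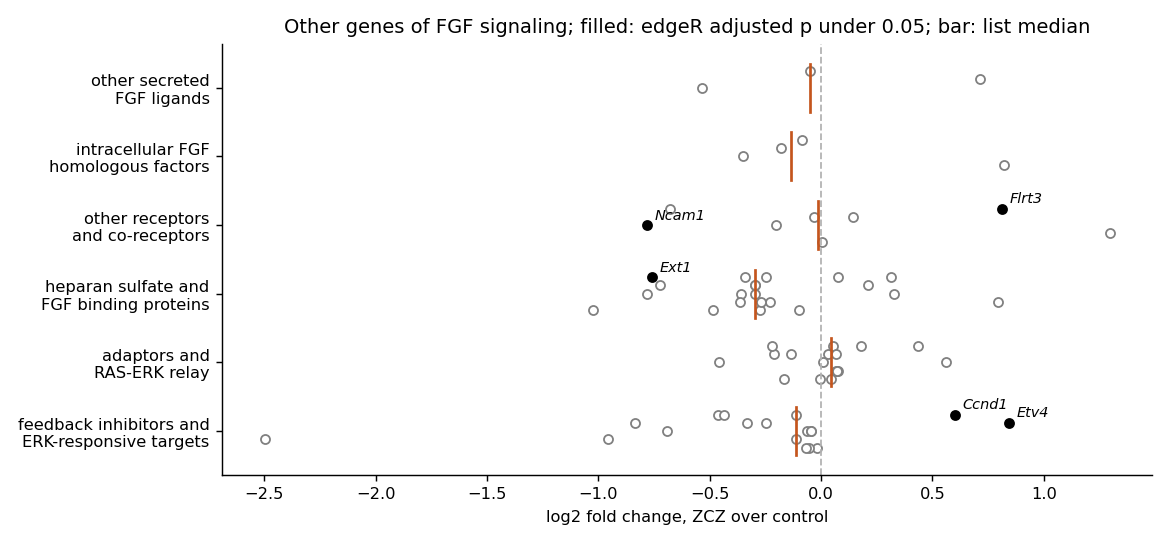
Log2 fold change in the ZCZ group over the control group for 71 other genes of FGF signaling in 6 lists by role (rows); filled points have an edgeR adjusted p under 0.05 and the orange bar is the list's median. Flrt3, Ccnd1 and Etv4 lie to the right and Ncam1 and Ext1 to the left, while the medians lie between -0.29 and 0.04.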

How the data were processed

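Raw read counts per gene, without normalization, were deposited by the authors in a table of 18540 genes with 1 column per sample (4 control, 4 ZCZ), assigned to groups by title (con for control, shiyan for the ZCZ-treated samples, a reading taken from the study's design). Per the labels, ribosomal RNA was removed and random-primed cDNA took dUTP into its second strand. The aligner, counting program, genome build, annotation and strand setting are not given in the sources used here, which leaves reads on overlapping genes unresolved. Every per-sample column was used (0 left out). Totals of 28856790 to 38974888 counts per library make a gene with few counts, such as Fgf23 in the ZCZ group, imprecise.

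Genes were kept by filterByExpr (15147 genes), scaled by TMM and fitted in edgeR 4.0.16 (R 4.3.3) by group alone, with Benjamini-Hochberg adjustment over all genes tested and a threshold of 0.05. CPM used TMM-adjusted totals, and log2 CPM a prior count of 2. Standard errors and 95% intervals came from the quasi-likelihood F statistic. Receptor ratios (pseudocount 0.5) were compared by exact two-sided permutation over 70 arrangements in scipy 1.17.1. Alternatives were DESeq2 1.42.0, other scalings, filters and a fold threshold, the sample number as a block, and each sample left out. On simulated counts for 15147 genes of this comparison, the fit recovered 61 of 100 genes shifted by 1 on the log2 scale and 94 of 100 shifted by 2, and called 7 unchanged genes. These figures hold for those counts only. Recovery in the sequenced libraries, which stood apart within both groups, was not tested.

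The members and gene lists were chosen with earlier results of these data known. All members were named, with up to 6 genes per list that passed the test by smallest p, otherwise the 2 of highest mean CPM, of which 1 is not reported here; Fgf12, Fgf14, Etv5, Dusp6, Spry1, Spry4, Fosl1, Kl and the single cell type markers were named after their values were seen. Lengths and overlaps came from GENCODE M21, to which all 10 members matched by symbol and Entrez identifier, and promoter windows from RefSeq (GRCm38.p6), which held 9 of the 10 members. No gene coordinates were matched to the counts.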

Additional observations from a re-analysis of the deposited data

Results flagged for a closer look

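Fgf7 in the control group was singled out because control-5, at 89.6 CPM, stood far above the other 3 control libraries, which lay between 46.7 and 47.8 CPM. Its gap to the nearest of them was 0.975 of the group's range (Dixon's ratio), over the 95% critical value for groups of 4. Of the 24 groups examined in this way, over 10 members and 2 receptor ratios in each condition, it was the only group past it, where chance alone puts about 5% of groups past it.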

How the results depend on the processing

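None of the 159 recomputed log2 fold changes of members turned its sign. The counts of genes that passed moved more. DESeq2 called 4 members higher and 4 lower, 14 other FGF signaling genes lower, and 1206 genes higher and 1539 lower in all, against 648 and 583 in edgeR. With library totals only, 1 FGF signaling gene was lower, and 972 genes were higher and 385 lower (71.6% higher against 52.6%), with the median of all genes at 0.10. At least 10 counts in every sample left 1 member lower, because Fgf23 was filtered out. Adding an absolute log2 fold change over 1 left 1 member higher, 0 FGF signaling genes in either direction, and 326 genes higher and 189 lower. Leaving out both ZCZ-2 and ZCZ-4, chosen after seeing the data, left 0 genes called in edgeR, with 1980 at an unadjusted p under 0.05.

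Over the 8 fits that left out 1 sample, members called higher numbered 0 to 3 and lower 0 to 4, FGF signaling genes 0 to 3 and 0 to 6, and all genes 0 to 886 and 0 to 868. The fits without control-5, ZCZ-1, ZCZ-2 or ZCZ-4 called no gene in edgeR, with 3223, 4208, 3137 and 3100 at an unadjusted p under 0.05, and that without control-2 called 25 higher and 98 lower. The differences in log2 ratio lay between 1.02 and 1.56 for Fgfr2 to Fgfr1 and between 1.085 and 1.55 for Fgfr3 to Fgfr1, where 3 samples against 4 cannot go below an exact permutation p of 0.0571. Except where stated, the cause was not tested.

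The sample numbers 1, 2 and 5 occur in both groups. Deviations from the group means of same-numbered samples correlated at -0.10, -0.06 and 0.32 across genes. Differently numbered samples ran from -0.41 to 0.39. The numbers were not taken as pairs, although this check cannot show that same-numbered samples came from different mice. With the number as a replicate block, 1 FGF signaling gene was higher and 1 lower, and 301 genes were higher and 253 lower. In that fit 2 members were higher (Fgf5 and Fgf22) and 2 lower (Fgf7 and Fgf23), and Fgfr3 had an adjusted p of 0.153 in edgeR. Control-3 and ZCZ-4 share their numbers with no library of the other group, so they add nothing to the group difference there. Low counts limit Fgf2, Fgf5, Fgf22 and Fgf23.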

Other observations

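Among markers of the outer root sheath and the hair follicle stem cells, 3 of 8 rose, where 4.28% of all genes tested rose. They were Lgr5 (log2 fold change 0.76, edgeR adjusted p = 0.0337), Sox9 (0.82, 0.0303) and Krt75 (1.87, 0.0300). Cd34, which endothelium and fibroblasts also carry, fell (-0.34, 0.0487), where 3.85% of all genes tested fell. Krt16 (-0.61, edgeR adjusted p = 0.264) lay under 0 and Lhx2, Krt15 and Krt17 above it, and none of these passed. The markers summed to between 2157 and 3043 CPM in the control group and between 2499 and 2968 CPM in the ZCZ group, so the groups overlapped. Of 9 dermal papilla markers, 2 rose, where 4.28% of all genes tested rose. They were Wif1 (0.56, edgeR adjusted p = 0.0341) and Notum (1.11, 0.0337), both of which encode inhibitors of Wnt signaling. Crabp1 (-0.81, edgeR adjusted p = 0.0695) and Sox18 (-0.71, 0.183) had log2 fold changes under 0 and did not pass. Crabp1 had a mean of 42.2 CPM in the control group and 24.1 CPM in the ZCZ group. The summed level of the dermal papilla markers lay between 73.0 and 107 CPM in the control group and between 80.7 and 87.7 CPM in the ZCZ group, so the groups overlapped.

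The 6 neutrophil markers summed to between 599.7 and 1545 CPM in the control group and between 173 and 705 CPM in the ZCZ group. The 6 macrophage markers summed to between 1077 and 1509 CPM and between 611 and 1226 CPM, the 6 adipocyte markers to between 172 and 247 CPM and between 128 and 182 CPM, and the 4 T cell markers in the table to between 21.0 and 37.4 CPM and between 22.0 and 33.5 CPM. None of the markers in these 4 lists passed the test.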
